A study of Mus musculus with 2 samples.

Results

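Open chromatin was described in mouse blood neutrophils at 9 genes grouped here as azurophil (primary) granule genes. The 9 were Mpo, Elane, Prtn3, Ctsg, Prss57, Cfd, Ms4a3, Bpi and Srgn. They were chosen by name, from what their products are known for, and with earlier results of these data known. They stand among 21938 protein-coding genes of the annotation. ATAC-seq, in which a transposase cuts and tags accessible DNA, had been run on 2 libraries of neutrophils from peripheral blood of C57BL/6J adults aged 5 to 6 weeks, with 50000 cells per library. There was 1 group, biological replicates 1 and 2, with no treatment and no comparison group. Both replicates trace to the same donor record through separate biosample records, and the labels do not say whether they came from different mice, so the spread between them may be technical. The sex was not collected, and the labels name no sorting step. The readout was a list of peaks per replicate, and the depth of the libraries is unknown because no read counts were used.

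Neutrophils build their granules in sequence while they mature in bone marrow. Azurophil granule proteins are made early, at the promyelocyte stage, and their transcription has largely stopped by the time a cell enters the blood, while the proteins stay stored in the granules. Myeloperoxidase (Mpo) makes hypochlorous acid, neutrophil elastase (Elane), proteinase 3 (Prtn3), cathepsin G (Ctsg) and Prss57 are serine proteases of the granule, and Bpi binds bacterial lipopolysaccharide. Serglycin (Srgn) is the proteoglycan that holds the proteases in the granule. Cfd, complement factor D or adipsin, is a related serine protease whose gene lies beside Elane, and Ms4a3 encodes a membrane protein of granulocyte and monocyte precursors. Cfd and Ms4a3 are counted among the granule genes below as part of the grouping. The transcription factors known to drive these genes in precursors include C/EBP family members, PU.1, RUNX1 with CBFβ, and MYB.

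The sequences below carry the contrast that the peak lists show: start sites without a peak (Elane, Mpo, Ctsg), start sites with one (Bpi, Srgn), and the distal open regions nearest to, or strongest around, these genes. The first 5 are the 250 bases upstream of a GENCODE start site, written 5′ to 3′ on the strand of the gene. The start site used for Srgn is the one farthest upstream of those that lie under its peak. The other 4 are 201 bases centred on a peak summit of replicate 1. All were read from the RefSeq GRCm38.p6 genome (the mm10 build), and none overlaps an annotated exon or UTR. Capitals mark matches on either strand to 4 short strings: TTNCNNAA (C/EBP type), GAGGAA (PU.1 type), TGNGGT (RUNX type) and AGNNGGC (the core of the CTCF site), where N is any base. A match describes letters and is not a bound site.
Elane upstream, chr10:79885997-79886246, plus strand: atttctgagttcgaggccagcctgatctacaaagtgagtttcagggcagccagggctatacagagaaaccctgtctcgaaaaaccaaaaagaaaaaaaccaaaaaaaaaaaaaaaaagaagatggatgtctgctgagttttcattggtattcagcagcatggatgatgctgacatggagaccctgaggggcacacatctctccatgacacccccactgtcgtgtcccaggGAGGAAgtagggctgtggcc
Mpo upstream, chr11:87793331-87793580, plus strand: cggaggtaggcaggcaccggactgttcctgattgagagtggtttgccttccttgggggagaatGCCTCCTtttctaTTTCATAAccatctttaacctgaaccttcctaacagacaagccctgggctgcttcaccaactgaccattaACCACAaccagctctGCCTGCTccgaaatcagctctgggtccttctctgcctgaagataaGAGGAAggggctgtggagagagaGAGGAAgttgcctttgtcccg
Ctsg upstream, chr14:56102575-56102824, minus strand: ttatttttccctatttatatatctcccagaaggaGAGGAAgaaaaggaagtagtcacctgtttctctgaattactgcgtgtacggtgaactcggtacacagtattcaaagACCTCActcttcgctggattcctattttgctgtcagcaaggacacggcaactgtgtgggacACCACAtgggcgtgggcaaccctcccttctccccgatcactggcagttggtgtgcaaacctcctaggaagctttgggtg
Bpi upstream, chr2:158257844-158258093, plus strand: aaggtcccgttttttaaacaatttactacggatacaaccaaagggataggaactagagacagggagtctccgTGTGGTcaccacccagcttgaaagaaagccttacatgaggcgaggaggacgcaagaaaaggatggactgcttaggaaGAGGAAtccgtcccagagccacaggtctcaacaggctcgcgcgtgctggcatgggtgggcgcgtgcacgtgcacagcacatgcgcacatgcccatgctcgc
Srgn upstream, chr10:62508098-62508347, minus strand: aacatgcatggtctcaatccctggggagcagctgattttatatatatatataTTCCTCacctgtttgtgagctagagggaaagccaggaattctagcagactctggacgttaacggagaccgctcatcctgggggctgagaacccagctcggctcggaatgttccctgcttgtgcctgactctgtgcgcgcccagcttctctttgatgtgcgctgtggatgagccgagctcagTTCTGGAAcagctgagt
Region between Prtn3 and Elane, chr10:79883752-79883952, plus strand: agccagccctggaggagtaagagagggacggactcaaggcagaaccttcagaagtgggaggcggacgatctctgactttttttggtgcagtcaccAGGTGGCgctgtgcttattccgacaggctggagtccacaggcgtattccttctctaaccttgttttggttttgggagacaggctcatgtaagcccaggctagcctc
Region downstream of Cfd, chr10:79892830-79893030, plus strand: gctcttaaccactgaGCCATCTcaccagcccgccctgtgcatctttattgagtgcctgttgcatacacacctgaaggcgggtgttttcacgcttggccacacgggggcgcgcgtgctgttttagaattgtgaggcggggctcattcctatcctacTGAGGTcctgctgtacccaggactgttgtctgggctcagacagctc
Region upstream of Mpo, chr11:87771073-87771273, plus strand: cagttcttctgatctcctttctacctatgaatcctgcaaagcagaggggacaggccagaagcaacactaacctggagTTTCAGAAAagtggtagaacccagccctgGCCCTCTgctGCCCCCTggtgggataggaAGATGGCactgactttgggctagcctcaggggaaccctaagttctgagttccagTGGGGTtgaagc
Region upstream of Srgn, chr10:62543534-62543734, plus strand: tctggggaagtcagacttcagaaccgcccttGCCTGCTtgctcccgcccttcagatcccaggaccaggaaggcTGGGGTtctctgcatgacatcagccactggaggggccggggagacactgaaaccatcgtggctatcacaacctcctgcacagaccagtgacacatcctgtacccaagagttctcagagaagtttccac

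Few of the granule genes had a promoter peak, meaning a region that reaches to within 1 kb of one of the gene's start sites. Genes with one are called open here. Such a peak was present in both replicates at 2 of the 9 genes, Bpi and Srgn, in the lists thresholded by the irreproducible discovery rate (IDR), an estimate of the share of peaks at that rank or above that would not recur in a repeat. This is 22.2% of the genes, while 39.8% of all 21938 genes had such a peak. Replicate 1 alone held 3 of the 9, the third being Prss57, against 47.1% of all genes, and replicate 2 held 2 against 40.3%. The less strict pseudoreplicated lists gave 3 of the 9 in both replicates against 49.8% of all genes. The conservative IDR list, made from both replicates, gave 2 against 46.8%. Elane, Ctsg, Cfd and Ms4a3 had no promoter peak in any of the 11 lists searched.

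**Figure D1:**
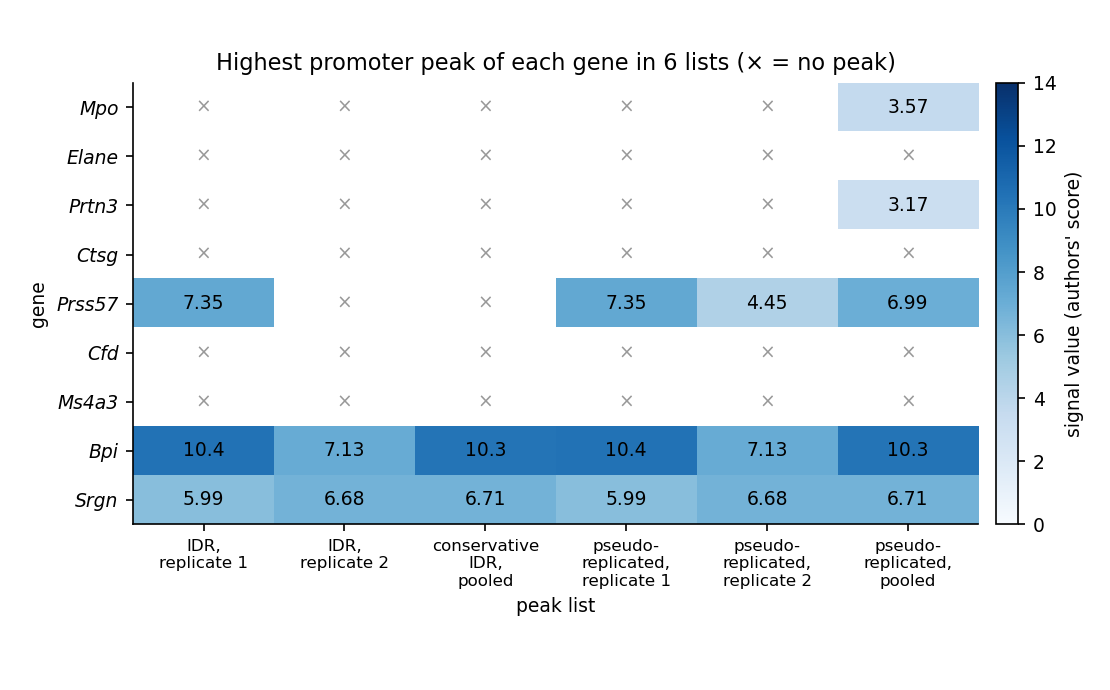
Signal value, the authors' score per peak, of the highest promoter peak of each gene (rows) in 6 peak lists (columns); darker blue is higher and a cross means no peak. Bpi and Srgn have a peak in every column shown, Prss57 misses replicate 2 and the conservative list under IDR, and Mpo and Prtn3 appear only in the pooled pseudoreplicated list.

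Most of the granule genes had promoters poor in CpG, as did 12198 of the 21938 protein-coding genes. Among the 9, only Prtn3 had a CpG-rich start (observed-to-expected CpG ratio 0.720, GC 64.9% in 500 bp on either side), and the other 8 had ratios of 0.148 (Mpo) to 0.376 (Bpi). Among genes without a CpG-rich promoter, 18.2% had a promoter peak in both replicates, and 2 of the 8 granule genes of that kind had one. Read against genes of this kind, the count is near the background.

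Bpi had the higher signal value of the 2 open promoters, and Srgn the higher −log10 p (43.5 against 41.4 in replicate 1, 26.2 against 13.6 in replicate 2). The Bpi peak had a signal value of 10.4 in replicate 1 (chr2:158258063-158258399) and 7.13 in replicate 2 (chr2:158258016-158258351), a mean of 8.76 ± 2.31 (SD, n = 2). The signal value is the authors' score with no stated definition, and it serves here only to describe and rank peaks. The summits lay 147 and 128 bp downstream of the single Bpi start site, in the 5′ UTR. The value stood above 44.0% of promoter regions in replicate 1 and above 4.81% in replicate 2, so the peak was of middle rank in one library and of low rank in the other. In the ranked list of replicate 2 its IDR was 0.0496, just inside the threshold of 0.05, and in replicate 1 it was 0.00286. A weaker second peak lay about 0.9 kb into the gene in the pseudoreplicated lists, at 5.77 and 5.73, and in the conservative list at 6.28.

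Srgn was open at internal start sites and not at its 5′-most one. The peak spanned chr10:62507564-62508197 in replicate 1 and chr10:62507608-62508157 in replicate 2, with signal values of 5.99 and 6.68 and a mean of 6.34 ± 0.488 (SD, n = 2). Its summits lay 19.7 and 19.6 kb downstream of the 5′-most start at position 62527451, and 34 and 81 bp from the nearest annotated start, in a UTR. The rank was low in both lists, above 7.63% and 3.48% of promoter regions. The IDR was 0.00283 in replicate 1 and 0.00999 in replicate 2, well inside the threshold, unlike that of Bpi in replicate 2.

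Prss57 was open in 1 replicate by the stricter criterion. Its peak in replicate 1, chr10:79788470-79788689, had a signal value of 7.35 and an IDR of 0.0176. In replicate 2 the same place had 4.45 in the pseudoreplicated list, with an IDR of 0.437, and no entry in the IDR list. The summit lay 2.4 kb inside the gene, in an intron, within 1 kb of an internal start site. In the ranked list between replicates its IDR was 0.0962, outside the threshold. In the pooled data it passed, with a signal value of 6.99 in the pooled IDR list and an IDR of 0.0117.

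Mpo and Prtn3 had a peak only once the replicates were pooled. The Mpo peak, chr11:87802675-87802878, had a signal value of 3.57 and an IDR of 0.397, and lay 9.19 kb into the gene beside an internal start site, not at the 5′-most start. The Prtn3 peak, chr10:79874453-79874680, had 3.17 and the same IDR, 0.397. It lay 86 bp from the 5′-most Prtn3 start, which is 0.16 kb from the start of the neighbouring gene Plppr3, so it cannot be given to either gene. Neither peak reached the IDR threshold in any list.

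Distal open regions were present around most of the granule genes. A distal region had its summit over 1 kb from every annotated start site and within 50 kb of the 5′-most start of the gene. At least 1 lay near 8 of the 9 genes in replicate 1, where 51.4% of all genes had one, and near 7 of the 9 in replicate 2, against 27.8%. At 7 of the 9 a region of replicate 1 overlapped one of replicate 2, against 27.5%. The median per granule gene was 3 in replicate 1 and 1 in replicate 2, and over all genes 1 and 0. These shares do not count independent places, because Prtn3, Elane and Cfd lie side by side and share regions: the 28 gene-by-region pairs of replicate 1 are 22 distinct regions, and the 14 of replicate 2 are 11. Of these, 11 regions were found in both replicates. The signal value was higher in replicate 2 at 6 of them and lower at 5. Over all peaks of the IDR lists the median signal value was 9.06 in replicate 1 and 10.7 in replicate 2. Whether the lists share a scale is unknown. Among the lists described below, specific and gelatinase granule genes had the same medians of 3 and 1. So did genes of granule sorting and release, and genes of mature neutrophils had 4 and 2. Regulators of the early granule genes had 2 and 1, and other granule and lysosomal constituents 2 and 0. Serine protease inhibitors and early precursor genes had 1 and 0.

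**Figure D2:**
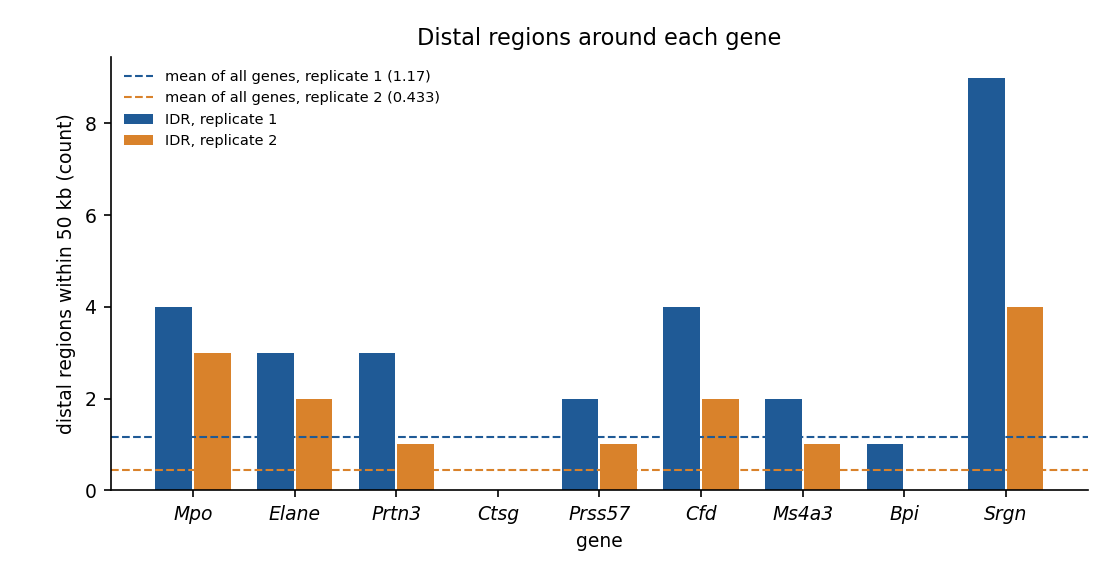
Number of distal regions within 50 kb of each gene (bars) in the IDR lists of replicates 1 and 2, with the mean over all protein-coding genes of the same list as dashed lines at 1.17 and 0.433. Srgn stands highest with 9 and 4 regions, Ctsg has none in either replicate and Bpi has 1 in replicate 1 only.

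The proteases Prtn3 and Elane and the complement factor gene Cfd form a cluster on chromosome 10, and of its 2 distal regions in both IDR lists the one with the higher signal value lay past the end of Cfd. It spanned chr10:79892795-79893070, 2.1 kb after the Cfd start and 6.7 kb after that of Elane, in intergenic sequence, with signal values of 10.7 and 8.56 (mean 9.64 ± 1.53, SD, n = 2). That put it above 64.9% of distal regions in replicate 1 and above 21.6% in replicate 2. A weaker intergenic region, chr10:79925337-79925628, had 5.73 and 6.49 (mean 6.11 ± 0.537, SD, n = 2), 39.2 kb downstream of the Elane start and 34.6 kb downstream of that of Cfd. It was among the lowest distal regions of both lists, above 5.53% and 3.21% of them.

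Closer to Elane, an intergenic region lay between Prtn3 and Elane at chr10:79883726-79884000, 2.4 kb upstream of the Elane start. It had 6.87 in the IDR list of replicate 1. In replicate 2 it was in the pseudoreplicated list alone, with 7.30, and it was in the conservative list with 7.64. A region in a Prtn3 intron, chr10:79877757-79878026, was in the conservative list with 5.56 and in the pseudoreplicated list of replicate 1 with 5.20, and in neither IDR list of a single replicate. A region in an Arid3a intron, chr10:79937021-79937463, had 6.03 in the IDR list of replicate 1, 5.12 in the pseudoreplicated list of replicate 2 and 6.07 in the conservative list. So between the Prtn3 start and the Elane start the IDR lists of the single replicates held 1 region, in replicate 1.

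**Figure D3:**
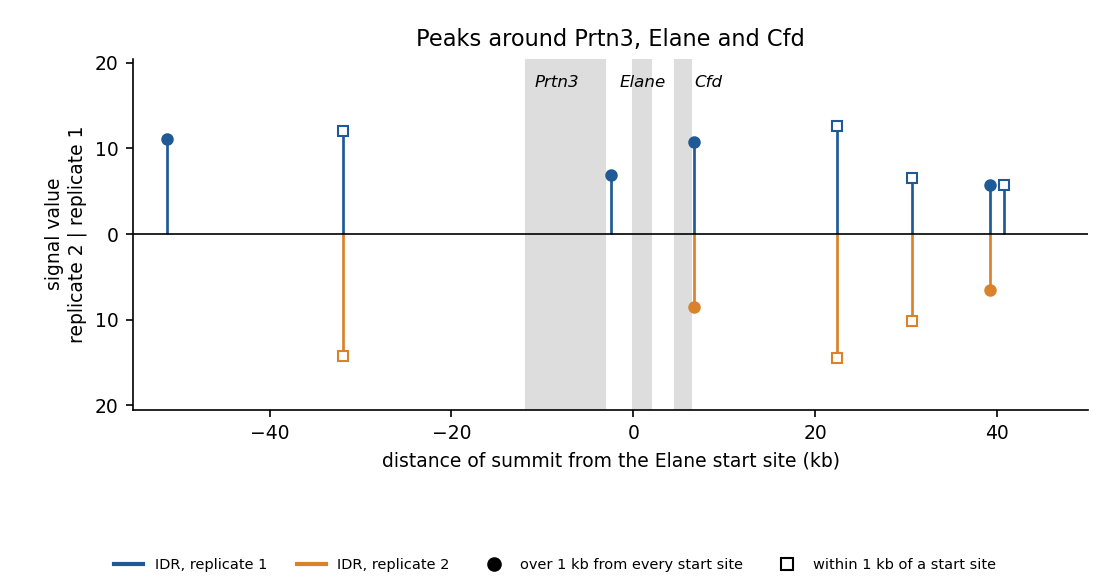
Signal value of each peak region around Prtn3, Elane and Cfd (grey bands are gene bodies) against the distance of its summit from the Elane start site in kb; replicate 1 points up and replicate 2 points down, filled circles are distal and open squares lie within 1 kb of a start site. The 3 gene bodies hold no region of either IDR list, the region past Cfd is in both replicates (10.7 and 8.56), and the one between Prtn3 and Elane is in the IDR list of replicate 1 only (6.87).

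Prss57, another serine protease gene, lies on the same chromosome on the Prtn3 side of that cluster. A region in an intron of its neighbour Palm, chr10:79812273-79812619, lay at −21.5 kb from the Prss57 start (negative means upstream). Its signal values were 10.5 and 10.5 (mean 10.5 ± 0.0239, SD, n = 2). They stood above 62.6% of distal regions in replicate 1 and above 51.1% in replicate 2. A second, intergenic region at −44.0 kb, chr10:79834861-79835126, had 11.0 in replicate 1 and 8.06 in the pseudoreplicated list of replicate 2. It is also the region at −39.5 kb counted for Prtn3, since the windows of the 2 genes meet there.

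At Mpo, the regions of the IDR lists lay upstream and none lay in the gene. An intron of the neighbouring gene Tspoap1 held one at −22.4 kb (chr11:87771045-87771302) with 10.05 and 8.47 (mean 9.26 ± 1.12, SD, n = 2). A pair of intergenic regions at −44.7 and −43.9 kb had 7.20 and 7.28, and 9.10 and 11.8, in replicates 1 and 2 (means 7.24 ± 0.0606 and 10.4 ± 1.89, SD, n = 2). A further region, at −48.4 kb, had 4.87 in the IDR list of replicate 1, 3.85 in the pseudoreplicated list of replicate 2 and 4.63 in the conservative list. Regions at −38.8, −38.1 and −36.9 kb lie within 1 kb of noncoding start sites around Mir142hg, the host gene of a microRNA of blood cells, and are therefore not counted as distal. The middle one had 6.40 and 8.55. The others were in the IDR list of replicate 1 and the conservative list but not in the IDR list of replicate 2, and the one at −36.9 kb was also in the pseudoreplicated list of replicate 2, with 3.88. On the downstream side the nearest summit of both IDR lists lay 59.6 kb from the Mpo start.

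Srgn, the granule proteoglycan, had the most distal regions of the 9 genes: 9 in replicate 1, more than 99.8% of all genes had, and 4 in replicate 2, more than 98.8%. The strongest lay upstream in introns of Kif1bp. At −16.2 kb a region at chr10:62543322-62543982 had 11.6 and 14.3 (mean 12.9 ± 1.89, SD, n = 2), above 72.5% and 86.3% of distal regions. At −22.5 kb the values were 10.6 and 8.34, and at −26.3 kb they were 10.9 and 8.63. Within Srgn, the intronic region 21.1 kb after the 5′-most start was weak in both replicates, at 5.27 and 5.28. The other 5 were in the IDR list of replicate 1 only, between 4.21 and 6.09. Of these, 4 were also in the pseudoreplicated list of replicate 2, between 4.02 and 6.11, and in the conservative list, and the region at −14.3 kb was in neither. The strongest Srgn distal region thus had more than the signal value of the Srgn promoter in each replicate (11.6 against 5.99, and 14.3 against 6.68).

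**Figure D4:**
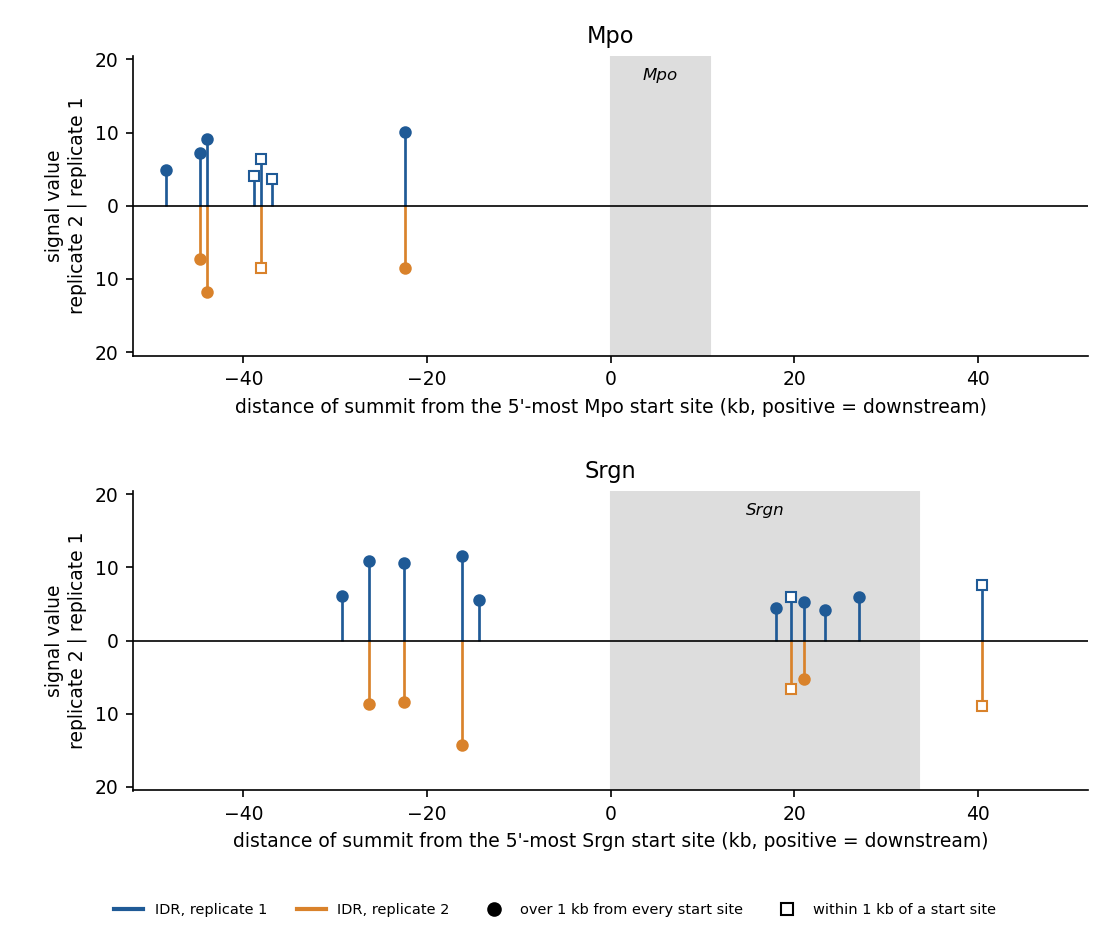
Signal value of each peak region against the distance of its summit in kb from the 5′-most start site of Mpo (top) and Srgn (bottom), with gene bodies in grey; replicate 1 points up, replicate 2 points down, filled circles are distal and open squares lie within 1 kb of a start site of some gene. In the IDR lists of the 2 replicates, drawn here, all regions of the Mpo window lie upstream of the gene. Those of Srgn lie upstream of and inside the gene, except the Vps26a promoter downstream of it (7.61 and 8.98). The tallest Srgn region is at −16.2 kb (11.6 and 14.3).

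Ms4a3, Bpi and Ctsg had few distal regions or none. For Ms4a3 the region in both replicates lay 38.6 kb downstream of its 5′-most start, in an intron of the related gene Ms4a6d (chr19:11601957-11602377), with 14.2 and 9.48 (mean 11.8 ± 3.33, SD, n = 2). A second at 29.2 kb had 8.40 in the IDR list of replicate 1, 6.85 in the pseudoreplicated list of replicate 2 and 9.40 in the conservative list. Bpi had 1 region past its 3′ end, 26.7 kb from its start, with 10.1 in replicate 1 only. Ctsg stood in a stretch without peaks: the nearest summits of both IDR lists lay 183.7 kb downstream and 469.3 kb upstream of its start. In the pseudoreplicated list of replicate 1 a summit lay 101.6 kb upstream, and none lay within 50 kb in the IDR, pseudoreplicated or conservative lists. For comparison, the median distance from a protein-coding gene to its nearest summit was 5.94 kb in replicate 1 and 16.1 kb in replicate 2.

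The neighbours of the granule genes show what is open in the same stretches of chromosome. Of 25 other protein-coding genes that start within 50 kb, 8 had a promoter peak in the IDR lists of both replicates, 1 in that of replicate 1 only (Arid3a, 5.77) and 16 in neither. Ptbp1, an RNA-splicing factor gene 31.82 kb from Elane on its upstream side, had 12.1 and 14.3, and Med16, a Mediator subunit gene 22.68 kb on the other side, had 12.7 and 14.4. The other open neighbours were R3hdm4 and Kiss1r, which share 1 region (6.56 and 10.2), Polrmt (15.2 and 18.8), Rnf126 (13.6 and 18.9), Fstl3 (11.4 and 9.69) and Vps26a (7.61 and 8.98). Of the 8 CpG-rich neighbours 5 were open in both replicates, and of the 17 others 3 were. The neighbours of Ctsg are mast cell protease and granzyme genes, Mcpt4, Mcpt8, Gzme and Gzmd. None of them had a promoter peak in the IDR list of either replicate. The same held for the neighbours of Mpo (Tspoap1, Lpo), of Ms4a3 (Ms4a6d, Ms4a2, Oosp2) and of Bpi (D630003M21Rik, Lbp). Plppr3 and Gm26602 by Elane and Prtn3, and Fgf22, Palm and Misp by Prss57, had none in those lists either. Other lists did hold some. Within 1 kb of the Tspoap1 start the conservative list had a region of 3.02. In a Lpo intron, within 1 kb of a start site of some gene, the pseudoreplicated list of replicate 1 had a region of 5.90. The pooled pseudoreplicated list had 4.67 there. The pooled IDR list had regions of 5.02 by the Palm start and 5.30 by the Lbp start. The pooled peak by Prtn3 described above also lay by the Plppr3 start.

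Lists of genes whose products work on or with these proteins gave higher counts. Other granule and lysosomal constituents had a promoter peak in both replicates at 9 of 14 genes, led by Gaa, lysosomal alpha-glucosidase (16.6 and 17.7), and Ctsc, the cathepsin that activates the granule serine proteases (16.1 and 16.3), while Cd63 and Clec5a had none. Genes of granule sorting and release were open at 5 of 7 (Vamp7 was not matched), led by Lyst, a regulator of lysosome-related organelles (21.8 and 25.4), and Stxbp2, a fusion protein (11.2 and 15.5), and Sytl1 had none. Of 5 serine protease inhibitors 4 were open, led by Serpinb6a (11.8 and 11.6) and Slpi, an elastase inhibitor (13.6 and 9.06), and Serpina3n had none. Here and below, genes said to have none lacked a promoter peak in the IDR list of each replicate. These counts are descriptions beside the 39.8% of all genes, and no difference between lists was tested. The lists were not matched for CpG class, and among genes without a CpG-rich promoter the share was 18.2%.

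Regulators of the early granule genes were open at 7 of 11. Cebpa, the C/EBP factor of granulocyte commitment, had 11.96 and 11.4, and Cbfb, the RUNX partner, had 9.71 and 13.1. Cebpb and Myb had no promoter peak in either IDR list. Of 7 early precursor genes 4 were open, among them the proliferation genes Top2a (17.6 and 18.5) and Mki67 (14.3 and 17.1), while Cd34 and Fcnb had none. Of 17 specific and gelatinase granule genes 6 were open in both replicates, near the share of all genes, and 9 in replicate 1, with Arg2 (15.0 and 15.5) and Adam8 (14.005 and 14.4) highest, and Camp and Cd177 without a peak. Genes of mature neutrophils were open at 10 of 21 in both replicates and at 17 of 21 in replicate 1, led by Clec4e (19.1 and 16.2) and Tlr4 (15.5 and 14.7), and Fpr1 and Fpr2 had none.

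**Figure D5:**
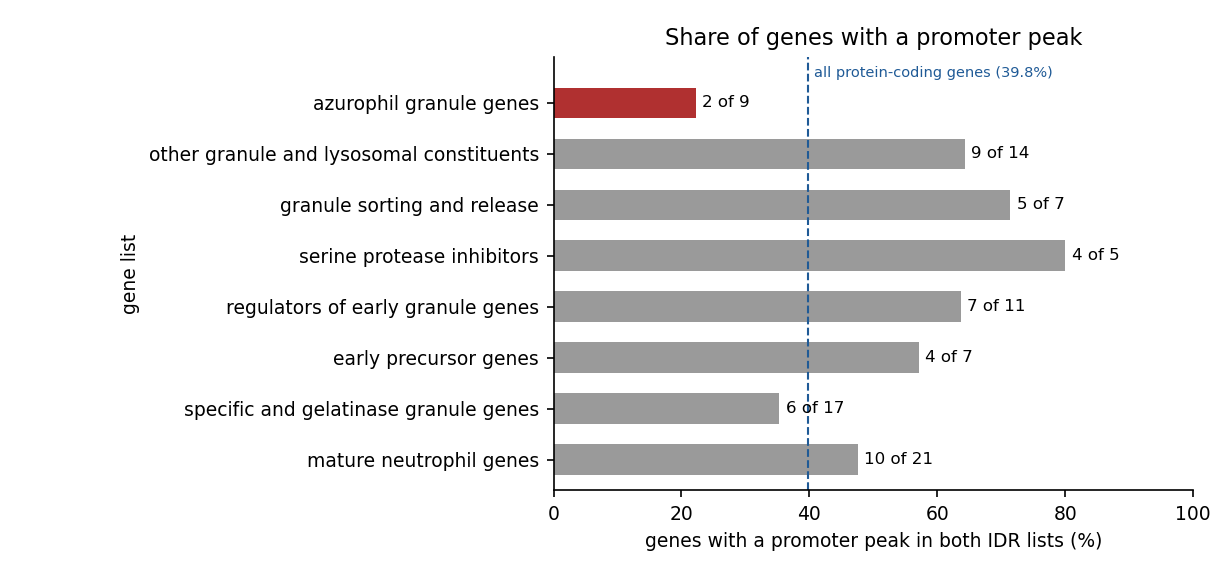
Share of the genes of each list (%) with a promoter peak in the IDR lists of both replicates, with the counts beside the bars and the value for all protein-coding genes (39.8%) as a dashed line. The azurophil granule genes have the shortest bar at 2 of 9, followed by the specific and gelatinase granule genes at 6 of 17. The lists were not matched for CpG class.

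The labelled cell type was set beside markers of other blood cells. B cell markers had a promoter peak in both replicates at 5 of 8 genes, among them Cr2 (23.7 and 17.0) and Pax5 (11.2 and 14.01). T cell markers did so at 1 of 8 (Cd3d, 16.9 and 17.8), and basophil and mast cell markers at 1 of 6 (Hdc, 9.79 and 9.92). NK cell and monocyte markers were at 0 of 7 each, erythroid markers at 0 of 7, and megakaryocyte and platelet markers at 0 of 6. In replicate 1 all 8 B cell markers had a promoter peak, against 17 of 21 mature neutrophil genes. T cell markers had one there at 2 of 8, NK cell markers at 2 of 7 and monocyte markers at 1 of 7. Basophil and mast cell markers stood at 1 of 6, erythroid markers at 0 of 7, and megakaryocyte and platelet markers at 1 of 6. Over all protein-coding genes the share was 47.1% in replicate 1 and 39.8% in both replicates. How far other cells contributed to the peaks at the granule genes was not tested. In bulk samples a small number of open cells and weak opening in many cells cannot be told apart.

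Short strings for known factors were searched on both strands in the 250 bases upstream of the 5′-most start of each granule gene. GAGGAA, the PU.1 type string, was present at 5 of 9 genes (Mpo, Elane, Ctsg, Prss57 and Bpi), while 22.9% of all 21938 protein-coding genes had it in the same window. Of these 5, Bpi was the only one with a promoter peak in both replicates. For Srgn the window searched lies at its 5′-most start, which had no peak. The window upstream of the open Srgn start, shown above, does hold the PU.1 type string. The MYB type string CAACTG, which also matches the E-box CANNTG, was present at 3 of 9 (Mpo, Ctsg and Srgn) against 10.5%. The C/EBP type string was present at 3 of 9 against 36.0%, and the RUNX type at 4 of 9 against 38.8%. The IRF type string GAAANNGAA was present at 2 of 9 against 7.19%, AGNNGGC at 4 of 9 against 54.8%, and the E-box at 7 of 9 against 64.1%. Neither AAATCAC (GFI1 type, 2.87% of all genes) nor TGANTCA (AP-1 type, 6.05%) was found upstream of any of the 9. The background of all genes was not matched to the 9 for base composition or CpG class.

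The sequences shown above give the places. Mpo holds GAGGAA at −44 to −39 and again at −21 to −16, counted back from the start site, a RUNX type match at −104 to −99 and a C/EBP type match at −174 to −167. Elane holds GAGGAA at −20 to −15 as its single marked match. Ctsg holds it at −216 to −211, with RUNX type matches at −140 to −135 and −79 to −74. Bpi, whose start was open, holds GAGGAA at −101 to −96 and a RUNX type match at −178 to −173. Upstream of the open Srgn start the PU.1 type match is on the opposite strand at −198 to −193, and a C/EBP type match lies at −17 to −10. The starts with and without a peak thus both carried such strings.

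In the distal regions the same strings were counted within 100 bp of the summit, a window of 201 bp. Of the 22 regions of replicate 1, AGNNGGC was present in 16, against 55.2% of all 15565 distal regions of that list, and TGNGGT in 13, against 45.3%. Within 50 bp of the summit TGNGGT was in 5 of the 22, against 28.5%, so its share stood above that of all regions in the wider window and below it in the narrower one. C/EBP type strings were present in 8 of 22 (38.2% of all) and PU.1 type strings in 7 (36.1%). TGANTCA was present in 4 (10.6%), the E-box in 14 (71.3%), and the MYB, GFI1 and IRF type strings in 1 each (11.6%, 2.37% and 8.06%). Of the 11 regions of replicate 2, AGNNGGC was in 9 (53.7% of 5521), TGNGGT in 8 (46.5%) and TGANTCA in 4 (12.4%), and the C/EBP and PU.1 types in 3 and 2 (38.0% and 38.6%). Within 50 bp TGNGGT was in 4 of these 11, against 29.0%, so in replicate 2 its share stood above that of all regions in both windows. The members of these sets are few, overlap between replicates and were not matched for base composition.

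The region between Prtn3 and Elane holds AGNNGGC from 5 bases before its summit to 1 base after it and none of the other 3 marked strings. The Mpo region at −22.4 kb holds it 3 times on either strand, at 6 to 12, 16 to 22 and 35 to 41 bases past the summit, beside overlapping C/EBP type matches 23 to 15 bases before the summit. The same string preceded by CANN, a longer part of the CTCF site, was searched after the sequences had been seen. It was present in 5 of the 22 regions of replicate 1, where 23.7% of all distal regions had it, and in 3 of the 11 of replicate 2, where 20.3% had it, which is near the background. The regions between Prtn3 and Elane, at −22.4 kb from Mpo and in the Palm intron by Prss57 were among those 5.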

How the data were processed

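ATAC-seq peak lists of 2 neutrophil libraries were used, on mm10. The authors deposited for each peak a signal value, a score that the file headers do not define, and a −log10 p whose test the file headers do not name. Per the file headers, each replicate has an IDR thresholded, a ranked and a pseudoreplicated list, and further lists come from both replicates together. Which aligner, peak caller and versions were used is not given in the sources used here. Depth is unknown, so lists of 34409 and 18367 peaks in replicates 1 and 2 may differ through depth, and signal values were not set against read counts.

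Overlapping peaks were merged into regions with the highest signal value and its summit, and assigned to GENCODE M21 start sites on GRCm38.p6, the same build (of 501725 peaks on assembled chromosomes, 0 lay past a chromosome end). Overlap between replicates needed 1 bp. A promoter was CpG-rich from an observed-to-expected ratio of 0.6 and a GC share of 0.5 upward. All 9 granule genes and their protein-coding neighbours within 50 kb are named. Of each pathway list, the 2 open genes with the highest mean signal value are named. The first 2 in alphabetical order without a promoter peak in the IDR list of either replicate are named too. Open markers followed the rule for open genes. The members and lists were chosen with earlier results of these data known. There is 1 group, so no test between groups was made. The counting code was tested on simulated peaks and found 200 of 200 planted genes. Promoter sequences of the RefSeq table were identical to the genome for 9 of 9 entries under the names of granule genes. Prss57 had no entry, so the entries do not stand for 1 gene each. Python 3.11.15, pysam 0.24.0, numpy 2.4.6 and matplotlib 3.10.9 were used.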

Additional observations from a re-analysis of the deposited data

How the results depend on the processing

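The count of 2 granule genes with a promoter peak in both replicates was 2 or 3 in the pseudoreplicated, conservative and pooled IDR lists and with promoter widths of 0.5 and 2.5 kb. It fell to 0 when only peaks at or above the median signal value of their list were kept, and to 1 (Bpi) with the 5′-most start site alone. Leaving out 1 replicate at a time gave 2 and 3. The counts with changed widths, start sites or signal cuts are given without the share of all genes under the same setting. The count of 11 distal regions in both replicates was 22 with the pseudoreplicated lists, 21 with the conservative list, 6 within 25 kb, 18 within 100 kb and 2 for peaks at or above the median. Leaving out 1 replicate gave 11 and 22: without replicate 2, whose list is shorter, it rose to 22. These distal counts are likewise given without a count over all genes under the same setting. The counts of regions with a motif string rose with the window, which holds more bases, from 5, 5, 5 and 11 within 50 bp to 9, 11, 16 and 17 within 150 bp for the C/EBP, PU.1, RUNX and CTCF core types in replicate 1. Over all distal regions of replicate 1 the shares rose as well, from 20.4%, 24.3%, 28.5% and 41.3% to 51.7%, 42.9%, 57.1% and 63.7%. No paired analysis was possible because there is 1 group and no test. With 2 libraries of unknown depth, a missing peak is not evidence of closed chromatin.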
